A study of Mus musculus with 4 samples.

Results

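Precision run-on sequencing (PRO-seq), which maps engaged RNA polymerase by labelling the nascent RNA it is making, was used here to describe 147 genes of the mouse liver that held polymerase near the transcription start site (TSS) but very little of it further along the gene. The genes were chosen by measured values. A gene was represented by its transcript with most promoter-proximal reads, averaged over the 4 libraries. That transcript had to carry an NM_ identifier (a curated RefSeq messenger RNA), its promoter-proximal mean had to be at least 50 reads, and its mean gene body density had to be at or under 4 reads per kb. Of 18618 genes with an NM_ transcript, 147 (0.790%) met the rule, and of the 8908 with a promoter-proximal mean of at least 50 they were 1.65%. The promoter-proximal value is the number of reads in the most occupied window of 50 bp within 500 bp of the TSS on the coding strand, and the gene body runs from 1 kb past the TSS to the end of the transcript.

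The livers came from C57BL/6 mice at day 14, with 2 libraries per genotype. The wild-type group (WT1 and WT2) carried Hdac3 +/+ together with Alb-Cre, a Cre recombinase driven by the albumin promoter, and the knockout group (KO1 and KO2) carried F/F or F/- Hdac3 alleles together with the same Alb-Cre. Alb-Cre acts in cells that express albumin, so the other cells of a KO liver keep Hdac3 on their F alleles. In F/- mice those cells also carry a null allele. Nuclei of several mice were pooled for each library, 20000000 nuclei entered each run-on, and neither the sex of the mice nor which mixture of biotin-labelled nucleotides a library received is stated per library. HDAC3 is a histone deacetylase that works inside the NCoR and SMRT corepressor complexes, and the question was how its loss alters polymerase at promoters and along genes.

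After initiation, RNA polymerase II usually halts a short way into the gene under the hold of the factors NELF and DSIF, until the kinase P-TEFb releases it into productive elongation. A promoter can therefore be occupied while the gene body is nearly empty. Many mammalian promoters, above all those rich in CpG dinucleotides, also fire in both directions, so that genes arranged head to head can share one promoter region. Genes of other tissues (testis, brain, muscle) can carry polymerase at the promoter in a cell that makes little of their RNA.

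The libraries held between 16628518 reads (KO2) and 26190040 reads (WT2) on annotated genes. The promoter-proximal share of those reads was 10.3% in WT1 and 9.38% in WT2, against 13.6% in KO1 and 17.0% in KO2. Hdac3 itself gave 665, 648, 609 and 582 gene body reads in WT1, WT2, KO1 and KO2 (log2 fold change -0.14 ± 0.13 SE, limma adjusted p = 0.409), so the deletion was not visible in these reads and the genotypes rest on the labels. Summed gene body reads of 8 hepatocyte markers fell from 311303 or more in the WT libraries to 161929 or less in the KO libraries, while those of 9 stellate cell and fibroblast markers went from 11626 or less to 21464 or more and those of 8 endothelial markers from 66054 or less to 104764 or more. No marker in these lists was at 0 and none was a member. In bulk liver, fewer cells of a type and less nascent RNA per cell cannot be told apart.

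**Figure D1:**
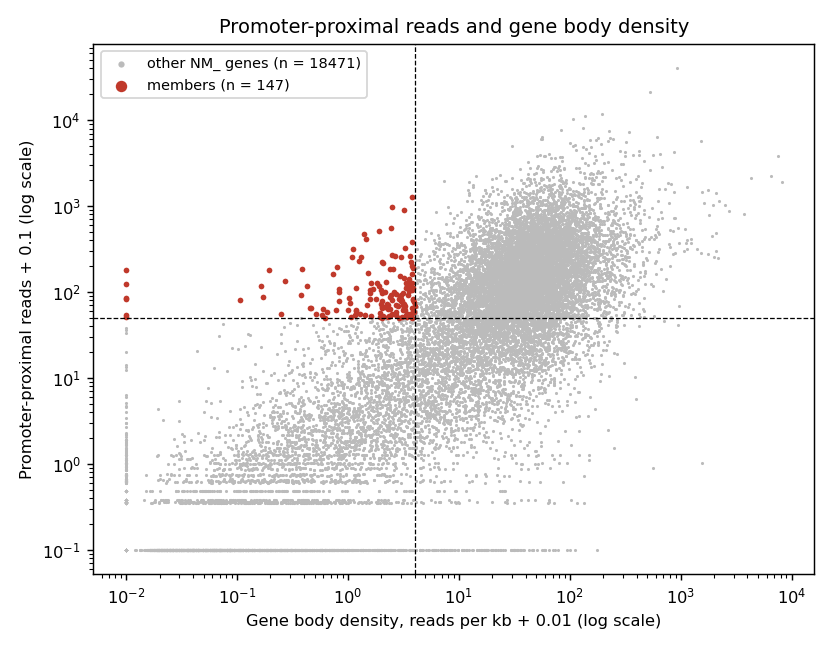
Mean promoter-proximal reads over the 4 libraries (vertical axis, reads plus 0.1, log scale) against mean gene body density (horizontal axis, reads per kb plus 0.01, log scale) for 18618 genes with an NM_ transcript. The dashed lines are the limits of the rule, 50 reads and 4 reads per kb, and the 147 members (red) fill the upper left corner, where genes are sparse.

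The members' values are set by the rule and are given as a description. Their promoter-proximal means ran from 50 to 1291 reads with a median of 84.6, and 21 of them were above 200. The median gene body density was 2.28 reads per kb, with quartiles of 1.17 and 3.21. The 8761 genes that met the same promoter limit but had a fuller gene body had medians of 182 promoter-proximal reads and 45.0 reads per kb. Just inside the promoter limit were Efna4 (50 reads), C1ql1 (50.1) and D330028D13Rik (50.4), and just outside it Rhbdl3 (49.97), Gdf6 (49.7) and Slit2 (49.5). Just inside the density limit were Cenpw (3.99 reads per kb), Nubpl (3.96) and Pgbd1 (3.93), and just outside it Ptpn13 (4.02), Nptx1 (4.07) and Polq (4.08).

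All 147 members had promoter-proximal reads in every library, but the mean over libraries hid differences. The promoter-proximal mean reached 50 reads in both genotypes for 101 members, in KO alone for 40 and in WT alone for 6. The gene body density exceeded 4 reads per kb in at least 1 library for 43 members, and 68 members stayed at or under it in each library while reaching 50 promoter-proximal reads in both genotypes. Little density did not mean few reads. The gene bodies were long, with a median of 40230 bp among the 141 whose length could be derived, 36 of them at least 100000 bp, against a median of 20315 bp in the genes with fuller bodies. The mean gene body read count exceeded the promoter-proximal one in 61 members, and the 7 members with gene bodies of 500000 bp or more held between 515 and 3261 gene body reads each.

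At the other end, 6 members (Ppdpf, Cxx1a, Mafa, Cox6b2, H1fx and Fam58b, named for being at 0) had no gene body read in any library. Their annotated transcripts left 169 to 1739 bp beyond the first kb, and their promoter-proximal means were 51.9 to 182 reads. A count of 0 in a library allows up to 3 reads, a limit that covers counting error only. That limit is 1.73 reads per kb in Mafa, and in the other 5 it is 9.90 to 17.8 reads per kb. These are limits for a single library, whereas the rule caps the mean over 4 libraries. They are therefore not set against the 4 reads per kb of the rule. Cxx1a has near-identical copies on the X chromosome, and its reads are uncertain for that reason.

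Promoter sequence was not used by the rule. RefSeq promoter windows (GRCm38.p6, 250 bases before to 50 after the start) matched 94 of the 147 members within 100 bp of the annotated start. A window was called CpG-rich where its GC content was over 50% and CpG was observed at 0.6 or more of its expected frequency. This held for 57 of 94 members (60.6%), between the 76.3% of the genes with occupied promoter and full body and the 20.4% of the genes low in both. The median observed-to-expected CpG ratio was 0.70 in members, 0.80 in the former and 0.28 in the latter. The windows of 6 members show the range, each on its own line from 5′ to 3′ with CG dinucleotides in capitals. Tsga10 (chr1:37865033-37865332, minus strand) had the highest promoter-proximal mean and held 46 CG dinucleotides. Cdnf (chr2:3512815-3513114, plus strand) held 21, and its neighbour Hspa14 started in the opposite direction 251 bp upstream. Asb15 (chr6:24527894-24528193, plus strand) held 3, with Ndufa5 starting 131 bp upstream. Nrxn3 (chr12:88794254-88794553, plus strand) held 2 and Klhl29 (chr12:5375633-5375932, minus strand) held 40, and both genes were higher in KO. Fbp2 (chr13:62858351-62858650, minus strand) held 6 and was lower in KO. For Asb15 and Nrxn3 the annotated gene bodies (41841 and 1539432 bp) differed in length from the counted ones (44021 and 1611058 bp). The counted start of these genes may therefore lie outside the printed window, and the distance of Ndufa5 is equally unsure.
Tsga10: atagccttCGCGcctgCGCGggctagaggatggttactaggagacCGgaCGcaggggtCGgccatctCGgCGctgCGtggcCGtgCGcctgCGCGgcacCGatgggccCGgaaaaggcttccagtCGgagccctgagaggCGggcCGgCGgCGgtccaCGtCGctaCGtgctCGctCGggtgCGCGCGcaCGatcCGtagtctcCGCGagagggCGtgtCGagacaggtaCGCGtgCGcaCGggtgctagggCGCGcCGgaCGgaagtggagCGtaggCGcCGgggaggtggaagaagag
Cdnf: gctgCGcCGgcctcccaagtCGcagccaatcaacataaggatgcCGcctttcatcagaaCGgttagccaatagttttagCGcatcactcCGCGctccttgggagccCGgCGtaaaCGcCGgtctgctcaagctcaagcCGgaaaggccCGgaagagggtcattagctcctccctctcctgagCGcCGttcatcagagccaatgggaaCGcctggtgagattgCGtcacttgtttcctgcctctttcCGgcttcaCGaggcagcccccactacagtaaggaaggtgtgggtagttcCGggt
Asb15: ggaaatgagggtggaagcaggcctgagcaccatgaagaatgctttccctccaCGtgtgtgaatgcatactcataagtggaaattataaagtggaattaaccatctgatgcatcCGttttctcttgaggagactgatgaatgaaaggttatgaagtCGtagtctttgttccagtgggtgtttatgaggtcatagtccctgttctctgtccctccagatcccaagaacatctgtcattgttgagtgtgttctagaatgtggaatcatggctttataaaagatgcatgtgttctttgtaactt
Nrxn3: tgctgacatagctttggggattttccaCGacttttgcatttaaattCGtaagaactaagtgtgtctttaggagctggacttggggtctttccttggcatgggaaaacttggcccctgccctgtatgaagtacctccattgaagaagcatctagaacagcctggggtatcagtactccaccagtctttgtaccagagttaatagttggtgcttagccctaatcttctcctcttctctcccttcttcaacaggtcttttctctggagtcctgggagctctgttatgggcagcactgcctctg
Klhl29: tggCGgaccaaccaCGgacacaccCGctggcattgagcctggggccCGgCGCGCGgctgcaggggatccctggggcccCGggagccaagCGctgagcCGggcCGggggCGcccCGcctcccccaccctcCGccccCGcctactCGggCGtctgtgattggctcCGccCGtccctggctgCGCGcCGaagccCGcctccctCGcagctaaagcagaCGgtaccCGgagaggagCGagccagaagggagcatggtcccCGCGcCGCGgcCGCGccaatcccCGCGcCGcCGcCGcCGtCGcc
Fbp2: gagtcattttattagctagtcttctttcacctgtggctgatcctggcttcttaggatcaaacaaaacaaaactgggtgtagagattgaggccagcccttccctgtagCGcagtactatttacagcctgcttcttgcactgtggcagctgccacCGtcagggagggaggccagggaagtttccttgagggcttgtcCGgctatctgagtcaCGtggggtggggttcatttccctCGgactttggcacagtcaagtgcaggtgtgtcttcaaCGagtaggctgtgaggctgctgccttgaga

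Short motifs were counted on both strands of the same windows, as a description of letters and not of bound factors. The GC box GGGCGG, the letters bound by Sp and Klf factors, was in 52.1% of member windows, against 70.3% of windows of genes high in both regions, 29.4% of those low in both and 35.7% of all 32851 windows. The CCAAT box (letters CCAAT, bound by NF-Y) was in 47.9% of member windows and 40.6%, 38.1% and 37.4% of the others in the same order. The ETS motif CCGGAAG was in 17.0%, 21.7%, 3.77% and 8.86%. The TATA box TATAAA, typical of focused tissue-specific starts, was in 4.26% of member windows, against 6.48%, 18.7% and 13.6% of the others in the order above, and 1 of the 4 member windows that held it was that of Asb15. The NRF1 letters GCGCATGC and the YY1 letters ATGGCGG, both found at promoters of housekeeping genes, were each in 1 of 94 member windows (1.06%), against 6.66% and 9.96% of windows of genes high in both regions. In CpG content, GC box and ETS motif the member windows lay between the genes high in both regions and those low in both. In NRF1 and YY1 letters they lay at or below the latter (1.59% and 1.71%), on 1 member window each. Their CCAAT share was above both sets and their TATA share below both. The E-box CACGTG was in 8.51% of member windows, 11.0% of those high in both and 6.33% of those low in both. In the same order the CRE TGACGTCA was in 2.13%, 3.71% and 1.59%, and the GA repeat GAGAG in 59.6%, 61.5% and 64.3%. AP-1 letters TGACTCA were in 2.13%, 3.09% and 6.78%, and GATA letters GATAAG in 3.19%, 4.49% and 7.99%. GGGCGG and CpG overlap in their letters, and no test was run on these shares.

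**Figure D2:**
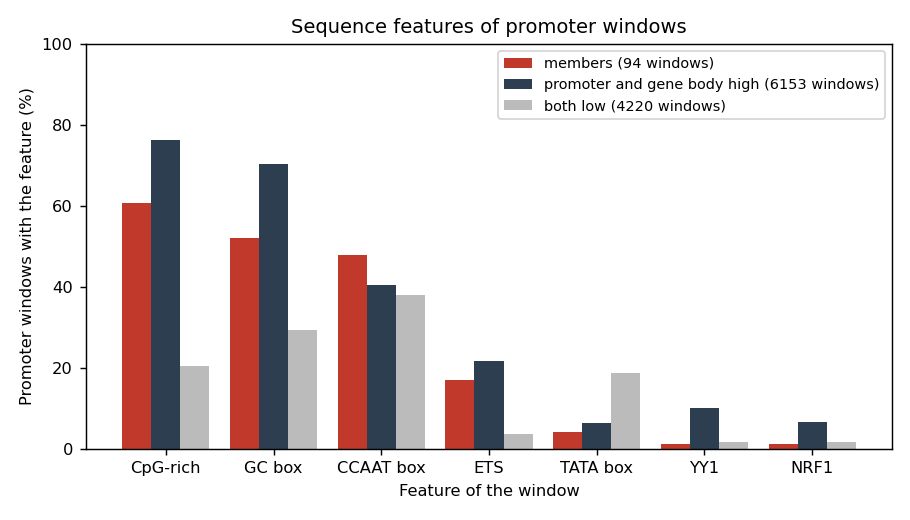
Share of RefSeq promoter windows (percent, vertical axis) that were CpG-rich or held each motif on either strand, for 94 members, 6153 genes high at promoter and gene body and 4220 genes low in both. Member bars lie between the other two for CpG-rich windows, the GC box and ETS, and near the genes low in both for YY1 and NRF1. They lie above both for the CCAAT box and below both for the TATA box.

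The arrangement of neighbouring genes was not used by the rule either. Of 146 members placed on the GENCODE annotation of mm10, 29 (19.9%) had another gene of the table starting on the opposite strand within 1 kb upstream, against 13.3% of the genes high in both regions and 2.35% of those low in both. The distance between the starts was 10 to 691 bp with a median of 163 bp. In 22 of the 29 pairs (75.9%) the neighbour's gene body density was over 4 reads per kb. Among genes with such a neighbour, that share was 90.8% for those high in both regions and 48.6% for those low in both. The median density was 27.2 reads per kb in the neighbours and 2.02 in the members, while the promoter-proximal medians were 110 and 101 reads. The rule caps the members' gene body density and not that of the neighbours, so the difference in density is a description and no finding. The neighbours' promoter-proximal mean was the higher of the pair in 13 of 29.

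The pairs described next were picked after their values were seen, for the contrast between the gene bodies. BC030307, now Ttc41, started 302 bp from Hsp90b1, which encodes a chaperone of the endoplasmic reticulum, and the densities were 3.75 and 247 reads per kb. Gm711, now Stkld1, started 141 bp from Surf4, a cargo receptor of the early secretory pathway, with 1.51 and 145 reads per kb. 1700025E21Rik started 66 bp from Tmem209 and had 242 and 258 promoter-proximal reads in the KO libraries and 117 and 108 in the WT libraries, but at most 3.18 gene body reads in any library over 9405 bp. In 7 pairs the neighbour too was at or under 4 reads per kb. What part of a member's promoter-proximal reads comes from polymerase leaving the shared region of an active neighbour was not tested.

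**Figure D3:**
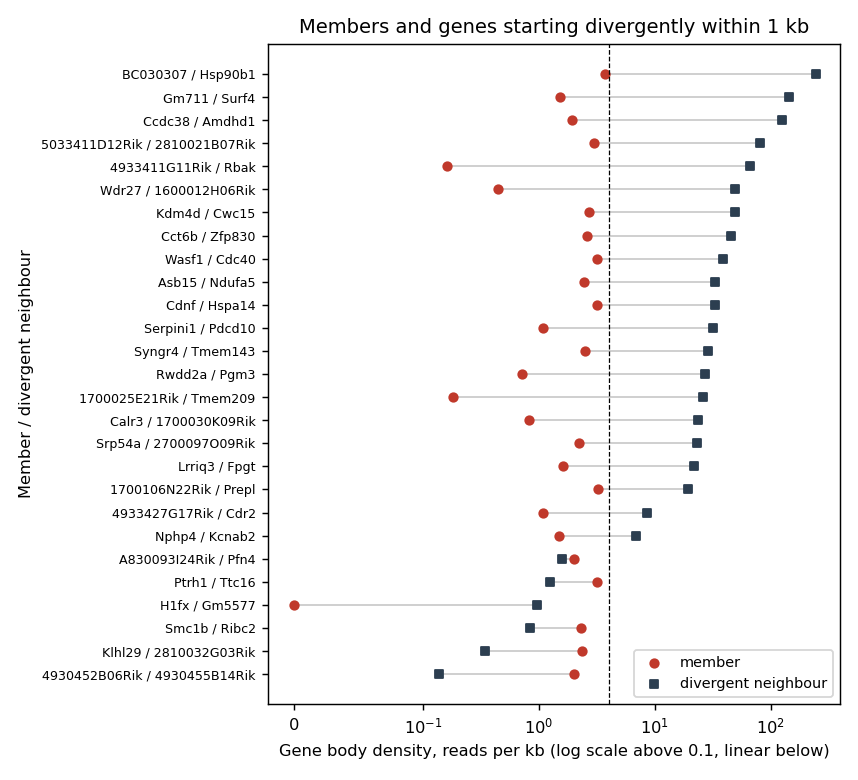
Mean gene body density (reads per kb, horizontal axis, log scale above 0.1 and linear below) of 27 of the 29 members with a gene starting divergently within 1 kb (red circles) and of that neighbour (dark squares). The dashed line is the 4 reads per kb of the rule. The neighbour lies to the right of it in 21 of the pairs drawn.

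The 12 members with the highest promoter-proximal means included Tsga10, Caprin2, Cdnf, Asb15, 1700034F02Rik, Nrxn3, Adamts17, Efcab2, Ninl, Serpini1 and Syngr4, and 5 of the 12 had a divergent neighbour. Tsga10, a gene of the sperm tail, had 1175 and 794 promoter-proximal reads in WT1 and WT2 and 1344 and 1851 in KO1 and KO2, with 363, 334, 523 and 430 gene body reads over 109304 bp. Both KO libraries were above both WT libraries at its promoter, but WT1 lay closer to KO1 than to WT2. Cdnf, a neurotrophic factor of the endoplasmic reticulum, had 717, 536, 987 and 1353 promoter-proximal reads and 41.3, 37, 47.7 and 31.9 gene body reads over 12312 bp. Asb15, an ankyrin repeat protein of muscle, had 517, 391, 472 and 835 promoter-proximal reads, in which the genotypes overlapped. Caprin2, which encodes an RNA-binding protein, had 754 and 606 promoter-proximal reads in WT against 1015 and 1499 in KO. Nrxn3, a presynaptic adhesion molecule, had the widest gap of these between its KO values (610 and 919) and its WT values (226 and 147). Of the others, Serpini1 (neuroserpin, a protease inhibitor of neurons) went from 213 and 163 to 456 and 440 reads, and Adamts17, a secreted metalloprotease, overlapped between the genotypes at 309 to 474.

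**Figure D4:**
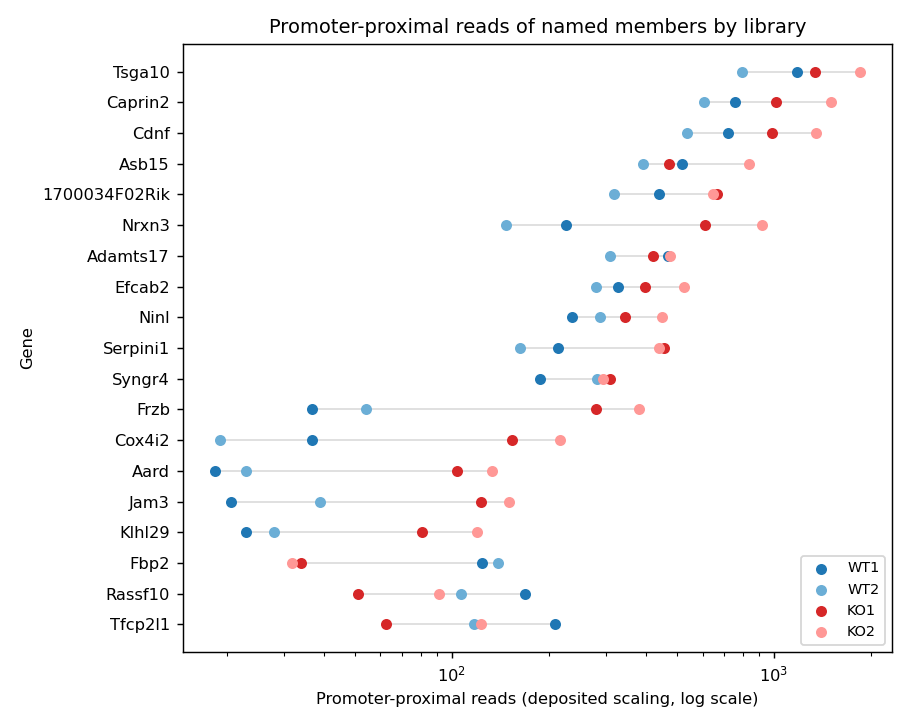
Promoter-proximal reads in each library (horizontal axis, reads at the deposited scaling, log scale) for 11 of the 12 members with the highest means, then the largest rises and the falls in KO. Each point is 1 library and the grey line spans the 4. WT (blue) and KO (red) points are separate for Frzb to Klhl29, Fbp2 and Rassf10, and overlap for Asb15, Adamts17 and Tfcp2l1.

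KO and WT were compared over all 12348 genes with a promoter-proximal mean of at least 10, on log2(reads + 1) with limma, and a gene was called at an adjusted p under 0.05 and a log2 fold change beyond 0.6. Promoter-proximal reads rose in 56 members (38.1%) and fell in 3 (2.04%), against 28.6% and 2.13% of all genes tested. The median log2 fold change was 0.59 in members and 0.58 in all genes tested. The members' median includes those that met the rule through KO. Among the genes high at promoter and gene body, 30.6% rose and 1.79% fell. Both KO libraries lay above both WT libraries in 90 members (61.2%) and below them in 11 (7.48%), against 64.4% and 6.05% of all genes tested. Of the 56 members that rose, 27 had a WT mean under 50 and entered through KO, so the rule itself raised the members' share. Among the 101 members with at least 50 reads in both genotypes, 29 rose (28.7%) and 2 fell. The share that rose among genes high in both regions with the same limit was 29.1%. The median log2 fold change was 0.44 in these 101 members and 0.57 in the genes high in both regions with that limit. The smallest exact two-sided permutation p that 2 against 2 libraries allow for a single value is 0.33, and the calls rest on the variance shared over genes.

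How many members rose depended on scaling and on single libraries. With median-of-ratios factors computed within the promoter-proximal values, which bring the median of all genes from 0.58 to 0.00, 20 members rose (13.6%) and 16 fell (10.9%), against 5.91% and 8.20% of all genes tested. Without WT1 the number that rose was 23 (15.6%, all genes 6.12%), without WT2 it was 14 (9.52%, all genes 4.18%), without KO1 it was 74 (50.3%, all genes 44.3%) and without KO2 it was 34 (23.1%, all genes 12.9%). In all these fits the members include those that met the rule through KO. WT2 had the lowest and KO2 the highest promoter-proximal share of reads, and KO2 was the least deeply sequenced.

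The largest rises at the promoter were those of Frzb, Cox4i2, Aard, Jam3, Nrxn3 and Klhl29. Frzb, which encodes a secreted antagonist of Wnt ligands, had 36.7 and 54 promoter-proximal reads in WT1 and WT2 and 280 and 380 in KO1 and KO2. Its log2 fold change was 2.84 ± 0.33 (SE, limma adjusted p = 6.7e-14). Its gene body rose too, from 34.4 and 30 reads to 142 and 122 (log2 fold change 2.0 ± 0.25, limma adjusted p = 9.92e-07), so that its density was 0.936 reads per kb in WT and 3.83 in KO. Cox4i2, an alternative subunit of cytochrome c oxidase, had 36.7 and 19 promoter-proximal reads in WT and 154 and 217 in KO (log2 fold change 2.74 ± 0.36, limma adjusted p = 2.14e-11). Its gene body held few reads, 2.29 and 13 in WT and 21.2 and 25.8 in KO, and that call was lost without WT1, without KO1 or without KO2 (log2 fold changes 0.80, 1.98 and 1.71), and its log2 fold change was 2.89 without WT2. Nrxn3 rose at the promoter by 2.03 ± 0.31 (limma adjusted p = 1.04e-08) and in its long gene body, from 1121 and 1207 reads to 3688 and 2988. Every KO value of these genes was above every WT value.

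Jam3, a junctional adhesion molecule, had 20.7 and 39 promoter-proximal reads in WT and 123 and 150 in KO. Its gene body went from 114 and 112 reads to 229 and 228 (log2 fold change 1.01 ± 0.18, limma adjusted p = 0.000102). Klhl29, a kelch-like protein, went from 23.0 and 28 to 80.6 and 120 promoter-proximal reads and from 430 and 405 to 985 and 998 gene body reads. Aard went from 18.4 and 23 to 104 and 134 promoter-proximal reads, while its gene body reads (8.03 and 11 in WT, 11.7 and 21.3 in KO) did not pass the test. Frzb, Cox4i2, Aard, Jam3 and Klhl29 had WT means under 50 and met the rule through the KO libraries. These rises ran in the direction of the stellate cell and endothelial marker lists, in which 9 of 9 and 6 of 8 genes rose in the gene body and 8 of 9 and 8 of 8 at the promoter. Their part in the members' rises was not tested.

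Promoter-proximal reads fell in 3 members. Fbp2, the muscle form of fructose-1,6-bisphosphatase, had 124 and 139 reads in WT and 34.0 and 31.9 in KO (log2 fold change -1.96 ± 0.36, limma adjusted p = 4.45e-06). Its gene body fell alongside, from 53.9 and 69 reads to 14.9 and 7.59. Rassf10, a Ras association domain protein, had 169 and 107 reads in WT and 50.9 and 91.1 in KO (log2 fold change -0.97 ± 0.34, limma adjusted p = 0.0227). Its call was lost without WT1, without WT2 or without KO1, at log2 fold changes of -0.64, -1.29 and -0.56. Tfcp2l1, a transcription factor of pluripotent cells and kidney, had 209 and 117 reads in WT and 62.6 and 123 in KO, so the genotypes overlapped, and its call at -0.83 ± 0.34 (limma adjusted p = 0.0473) was lost without WT1 (-0.41), WT2 (-1.24) or KO1 (-0.34). In its gene body the genotypes were apart, with 302 and 292 reads in WT against 128 and 117 in KO. Among the top 12, the promoter calls of Tsga10 and Caprin2 were lost without WT1, without WT2 or without KO2, as was that of Cdnf, with log2 fold changes from 0.42 to 1.11. That of 1700034F02Rik was lost without WT1 (1.04) or WT2 (0.58), and that of Serpini1 without WT2 (1.07).

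In the gene body 122 members reached a mean of 10 reads and were tested, and 25 were too low. Gene body reads rose in 25 and fell in 16 of the 122, with a median log2 fold change of 0.17, where 13.0% of all 14998 genes tested rose and 11.7% fell and the median was -0.06. The rule caps the gene body mean, so the members' share is not read against that background. In 18 members promoter and gene body rose together, in 2 both fell, in 29 the promoter rose without a gene body call, and in 9 it rose where the gene body was too low to test. In 7 members the gene body alone rose and in 14 it alone fell. These joint calls were not counted over all genes tested, so they describe the members only. Of the 56 promoter rises, 27 were of members with a WT mean under 50, which met the rule through KO. By limma, no member was called up at one and down at the other, and edgeR's quasi-likelihood test also counted 25 gene body rises and 16 falls.

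The changes in the gene body alone included some of the largest. Cdh22, a cadherin, held 3.44 and 12 gene body reads in WT and 27.6 and 31.9 in KO over 122231 bp (log2 fold change 2.01 ± 0.51, limma adjusted p = 0.00264), while its promoter-proximal reads overlapped between 149 and 98 in WT and 80.6 and 147 in KO. The gene body call of Cdh22 was lost without KO2, at a log2 fold change of 1.91, and its log2 fold change was 1.24 without WT1 and 2.79 without WT2. Asb15 went from 67.7 and 45 gene body reads to 149 and 172 (log2 fold change 1.51 ± 0.24, limma adjusted p = 1.67e-05). In the other direction, 4930452B06Rik, now Cfap20dc, went from 818 and 774 gene body reads to 178 and 125 (log2 fold change -2.41 ± 0.17, limma adjusted p = 1.17e-10), with promoter-proximal reads of 65.4 and 60 in WT and 37.1 and 39.5 in KO. Sdk1, an adhesion molecule of the immunoglobulin family with a gene body of 971258 bp, went from 2416 and 2366 reads to 728 and 651 (log2 fold change -1.79 ± 0.12, limma adjusted p = 5.48e-11). Its promoter-proximal reads, 145 and 104 in WT and 67.9 and 74.4 in KO, were lower in both KO libraries but did not pass (limma adjusted p = 0.0673). By their group means, 14 members were over 4 reads per kb in KO and 11 in WT. The rule caps the mean over both genotypes at that density, so a member over it in either genotype was under it in the other by construction.

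**Figure D5:**
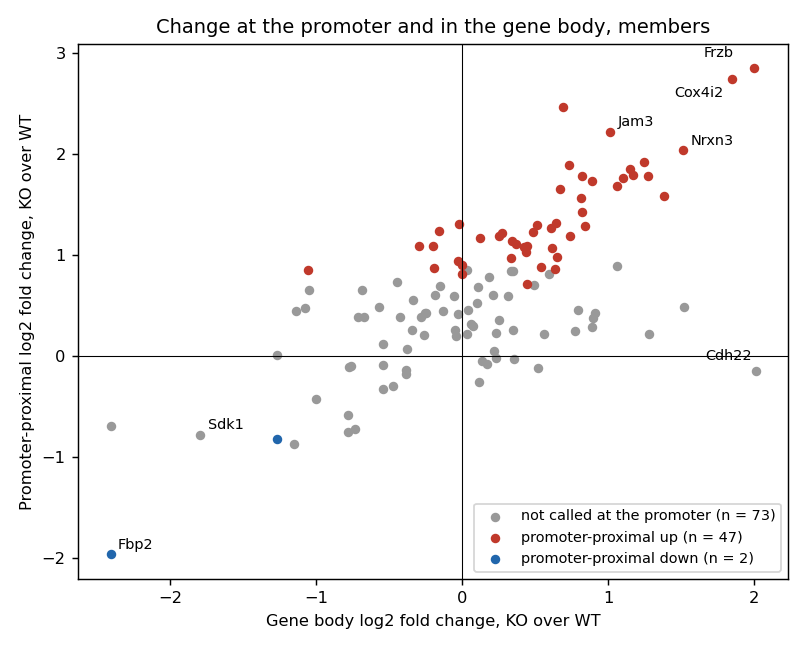
Log2 fold change of KO over WT at the promoter (vertical axis) against that in the gene body (horizontal axis) for the 122 members tested in both. Colours give the promoter-proximal call, with 47 up, 2 down and 73 neither. Frzb, Cox4i2 and Nrxn3 are high on both axes, Fbp2 low on both, and Cdh22 and Sdk1 are far from 0 mainly in the gene body.

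The promoter-proximal reads divided by the gene body reads, a measure of how polymerase divides between promoter and gene, rose in 16 of the 122 members (13.1%) and fell in 1, with 12.9% and 0.182% among all 12067 genes tested. The fall was that of Cdh22 (log2 fold change -2.16 ± 0.44, limma adjusted p = 0.000273), whose call was lost without WT1 at -1.09 and whose log2 fold change was -3.24 without WT2. The largest rises of this ratio were in Calr3, a calreticulin of the testis (1.91 ± 0.43), Aard (1.77 ± 0.41), 4930452B06Rik (1.71 ± 0.39) and 4921507P07Rik (1.70 ± 0.40). Calr3 rested on 21.8 and 18 gene body reads in WT and 17.0 and 4.55 in KO, and its log2 fold change was 3.09 without KO1 and 0.73 without KO2. The ratio calls of Calr3, Aard and 4930452B06Rik were lost without WT1 or without WT2 at log2 fold changes of 1.69 to 1.91, and that of 4921507P07Rik without WT2 at 1.17. In Aard the promoter-proximal part of the ratio rose, and in 4930452B06Rik and 4921507P07Rik the gene body part fell. The number of ratio rises turned on single libraries, with 2 without WT1, 0 without WT2 by limma (18 at an unadjusted p under 0.05), 50 without KO1 and 4 without KO2. The shares of all genes in the same fits were 0.191%, 0.133%, 46.3% and 2.74%, and those of the members 1.64%, 0%, 41.0% and 3.28%.

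By gene family, members were spread thinly. Of the signalling ligands, 3 of the 30 with a promoter-proximal mean of at least 50 were members (Bmp7, Wnt9a and Efna4). Bmp7, a bone morphogenetic protein, had 56.2 and 85 promoter-proximal reads in WT and 39.2 and 44.0 in KO, which did not pass the test, and its gene body fell from 226 and 208 reads to 134 and 126 (log2 fold change -0.74 ± 0.18, limma adjusted p = 0.00237). Wnt9a, a Wnt ligand, had 48.2 and 44 promoter-proximal reads in WT and 53.0 and 72.9 in KO, with neither region called. Of the solute carriers, 7 of 154 were members. Slc23a3, an orphan relative of the ascorbate transporters, had 160 and 76 promoter-proximal reads in WT and 167 and 217 in KO, short of a call (limma adjusted p = 0.0547). Slc2a13, a proton-coupled myo-inositol transporter, rose at the promoter, from 76.9 and 82 reads to 146 and 260 (log2 fold change 1.29 ± 0.33, limma adjusted p = 0.00169, no call without WT1, WT2 or KO2, at 1.24, 1.33 and 0.87), and in the gene body, from 769 and 758 reads to 1478 and 1266. With an occupied promoter, 1 of 18 homeobox genes outside the Hox clusters (Dlx4) and 1 of 14 forkhead genes (Foxj1) were members. So were 1 of 16 Klf and Sp genes (Klf5) and the 1 Zic or Gli gene (Glis3). Hox, Sox, Gata, T-box and bHLH genes gave none, and 4, 5, 3, 2 and 22 of them had an occupied promoter. None of 26 immediate-early genes and none of 20 ion channel genes with an occupied promoter was a member. Members were 1.65% of all genes with an occupied promoter, so counts of 0 in families this small say little.

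Members with and without a divergent neighbour are given side by side, with no test of the difference. Promoter-proximal reads rose in 12 of 29 members with a divergent neighbour and in 44 of 117 without one, beside 28.6% of all genes tested, with median log2 fold changes of 0.73 and 0.48. Both groups include members that met the rule through KO, so their shares are not read against that of all genes. With at least 50 reads in both genotypes, 28.7% of members rose, against 29.1% of the genes high in both regions. Where promoter-proximal values of both genes of a pair could be tested, in 24 pairs, the member rose in 10, the neighbour in 6 and both in 3. Of the 146 placed members, none lay within 10 kb of an active enhancer that the study listed, and 5 (3.42%) lay within 50 kb. The shares were 2.70% and 10.8% of the genes high in both regions and 0.832% and 4.40% of those low in both. The members' shares were thus near those of the genes low in both. That list leaves out regions near annotated genes, which limits how close a listed enhancer can be.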

How the data were processed

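PRO-seq was carried out on liver nuclei of 2 WT and 2 Hdac3 KO libraries. Per the labels and the study's methods, the authors used cutadapt for trimming and Bowtie2 for alignment to mm10, dropped reads from ribosomal RNA and those of mapping quality under 10, and counted reads per promoter-proximal window and gene body with their NRSA software. The deposited values are these read counts multiplied by 1 factor per library (signal per region, and plain counts in WT2, whose factor is 1), with reads per bp in gene bodies. Whole reads were recovered for 100% of 41640 values per library (tolerance 0.01). Library depth was 16628518 to 26190040 reads on genes.

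Log2(value + 1) was fitted with limma 3.58.1 (R 4.3.3, trend) over all genes with a mean of at least 10 in the region, with Benjamini-Hochberg adjustment. Because the unit is scaled reads, edgeR 4.0.16 and DESeq2 1.42.0 on the recovered whole reads were alternatives. The study's own test covers genes with more than 4 reads per kb once total reads are scaled to a fixed number. The values used here are on another scale, that of WT2. Whether the study's test left out every member was not checked. The fit was tested on simulated data. Members, gene lists and motifs were chosen with earlier results of these data known. Named genes were the 12 highest promoter-proximal means, the 6 largest called rises and falls with separated genotypes, the members nearest each limit, the 4 largest gene body and ratio calls each way, all promoter-proximal falls, and the 2 highest of each family with 3 or more members. Genes were placed with GENCODE, where gene body lengths matched within 100 bp in 95 of 140. Per the study's methods, the libraries of a genotype were separate pools of mice. The study's enhancer list gave positions only. Some results are not reported here.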

Additional observations from a re-analysis of the deposited data

How the results depend on the processing

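With no filter on low values, limma called 0 up and 0 down at the promoter and for the ratio. This held for members and for all 20642 genes. At an unadjusted p under 0.05, 51 members were up and 5 down at the promoter, and 23 and 3 for the ratio. Why no gene was called there was not tested. With the filter kept, edgeR called 55 and 2 members at the promoter (37.4% and 1.36%, all genes 28.3% and 2.11%). In gene bodies limma without the filter called 6 members up and 5 down (4.08% and 3.40%, all genes 1.97% and 2.86%). The members' median log2 fold change there was 0.072. Factors from median-of-ratios within each region led to 20 members up and 16 down at the promoter (13.6% and 10.9%, all genes 5.91% and 8.20%), with a median of 0.0086. TMM scaling led to 19 and 18 (12.9% and 12.2%, all genes 5.90% and 8.42%), with a median of 0.0022. For the ratio both gave 0 members up and 0 down by limma (10 and 19 unadjusted), with medians of -0.064 and -0.068. Among all 12067 genes tested for the ratio, median-of-ratios gave 3 up and 13 down and TMM 7 and 24. These factors remove a shift shared by most genes. The gene body median was 0.25 under each of the 3 other scalings, and 0.11 with a pseudocount of 10. With scaling from gene bodies, and with DESeq2, 1 member fell at the promoter (0.680%, all genes 1.43% in both). The 68 members that met both limits throughout gave 18 up and 0 down at the promoter (1 down at an unadjusted p under 0.05), 7 up and 5 down in the gene body with a median of 0.0495, and 8 ratio rises. Their shares that rose were 26.5%, 13.0% and 14.8%, against 28.6%, 13.0% and 12.9% of all genes tested. With at least 50 promoter-proximal reads in both genotypes, a choice made after seeing the data, 29 rose.

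The rule itself gave 60 members at a density limit of 2 reads per kb, 402 at 8, 59 at a promoter-proximal mean of 100, and 68 when applied to each library and genotype. The counts given next, without 1 library, describe the members only, because all genes tested shifted in the same fits. At the promoter the median log2 fold change was 0.39 to 0.77 in all genes tested and 0.46 to 0.79 in members. In gene bodies it was -0.11 to -0.01 in all genes tested. Leaving out 1 library gave 14 to 74 members up and 1 to 4 down at the promoter, 17 to 30 up and 14 to 17 down in gene bodies (median 0.10 to 0.28), and 0 to 50 up and 0 to 2 down for the ratio.

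Replicates of the same number deviated with a correlation of -0.11 at the promoter and 0.02 in gene bodies, and nothing in the labels ties them. The replicate block left 42 promoter rises and 1 fall among members (28.6% and 0.680%, all genes 15.9% and 1.38%). It left 25 and 16 gene body calls (20.5% and 13.1%, all genes 13.1% and 11.8%). For the ratio it left 4 rises and 1 fall (3.28% and 0.820%, all genes 1.11% and 0.0331%). The crossed numbering as a block, added after seeing the data, gave 65 rises and 5 falls at the promoter (44.2% and 3.40%, all genes 41.2% and 3.02%). For the ratio it gave 39 and 3 (32.0% and 2.46%, all genes 35.9% and 0.605%). No single named gene changed direction with a call under any of the settings run. With 2 libraries per genotype, members near 50 promoter-proximal reads had standard errors of up to 0.39 on the log2 scale.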

Other observations

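Of the 146 placed members, 12 (8.22%) were on the X chromosome, against 2.48% of the genes high at promoter and gene body and 6.77% of the genes low in both. No test was run on these shares. Of the 147 members, 21 carried names of cDNA clones or predicted genes (ending in Rik, or starting with Gm or BC). The start of 4 members lay inside another gene of the table on the opposite strand, and none lay inside another gene on its own strand.

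The divergent neighbours of the members were tested in the same fits. In gene bodies 2 of the 26 neighbours tested rose and 5 fell, where 3 of the 24 members tested from these pairs rose and 4 fell, and 13.0% and 11.7% of all genes tested rose and fell.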
